A study of Mus musculus with 7 samples.

Results

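Galectins and Siglecs are the proteins through which cells read the sugars on each other's surfaces, and 10 of their genes were followed in mouse long-term haematopoietic stem cells (LT-HSCs) with and without B4galt1. They are 6 galectin genes (Lgals1, Lgals3, Lgals4, Lgals8, Lgals9 and Lgals12) and 4 Siglec genes (Cd33, Siglece, Siglecf and Siglecg), chosen for function from the 34932 genes in the files. The 4 libraries labelled B4galt1 KO (genotype 129S1/C57Bl/6, B4-/-) were set against 3 labelled B4galt1 WT (genotype 129S1/C57Bl/6), both from bone marrow LT-HSCs on the same mixed background. The knockout is described as a full one, so marrow cells around the stem cells carry it too. No age or sex is given in the labels, which also do not say whether each library is a separate animal. Cells were sorted as negative for lineage markers and CD48 and positive for Sca-1, cKit and CD150, and their RNA was amplified with a SMART-Seq kit that does not mark strand. All p-values rest on how far these libraries scatter, and part of that scatter may be technical.

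The enzyme encoded by B4galt1 puts galactose onto N-acetylglucosamine at the tips of N-glycans, and sialic acid is then attached to that galactose. Galectins are secreted or cytosolic lectins that bind beta-galactosides, best of all when these are repeated as poly-N-acetyllactosamine. Siglecs are membrane receptors of the immunoglobulin superfamily that bind sialic acid, and most of them pass on an inhibitory signal through tyrosine motifs in the cytoplasmic tail. Some of the sugars that both families read are thus built on the product of B4galt1. The comparison asks whether the genes of the readers were expressed differently where that enzyme was removed.

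All 4 Siglec genes lie in 1 stretch of chromosome 7 (GRCm38): Siglecf at chr7:43351341-43359531, Siglecg at chr7:43408204-43418358, Cd33 at chr7:43524216-43544428 and Siglece at chr7:43651070-43660161. The galectin genes are spread, with Lgals1 at chr15:78926725-78930465, Lgals3 at chr14:47367751-47386160, Lgals4 at chr7:28833854-28841708, Lgals8 at chr13:12439415-12464944, Lgals9 at chr11:78962974-78984946 and Lgals12 at chr19:7596660-7607193.

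The sugar-binding groove of a galectin is lined by a conserved set of residues, among them a tryptophan that stacks against galactose. A search of the leading coding transcript of each gene looked for the codons of histidine, any residue, asparagine, proline and arginine, followed by the tryptophan and, after any pair of residues, a glutamate. It found 1 such stretch in Lgals1 and in Lgals3 and 2 each in Lgals4, Lgals8 and Lgals9, whose proteins carry a pair of carbohydrate recognition domains. In Lgals12 it found 0. The stretches of Lgals9, the galectin of highest level, and of Lgals1 and Lgals3, whose CPM levels did not overlap between the groups, are shown with the tryptophan codon in capitals (GENCODE M21 transcripts, GRCm38, each within 1 exon).
Lgals9 first domain (chr11:78973066-78973140, minus strand, exon 3): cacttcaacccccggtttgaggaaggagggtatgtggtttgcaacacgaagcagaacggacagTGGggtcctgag
Lgals9 second domain (chr11:78965743-78965814, minus strand, exon 9): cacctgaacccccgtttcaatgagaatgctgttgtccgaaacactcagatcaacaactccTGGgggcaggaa
Lgals1 (chr15:78929676-78929759, plus strand, exon 3): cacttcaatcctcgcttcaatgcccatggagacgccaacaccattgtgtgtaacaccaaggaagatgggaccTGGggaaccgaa
Lgals3 (chr14:47384642-47384722, plus strand, exon 5): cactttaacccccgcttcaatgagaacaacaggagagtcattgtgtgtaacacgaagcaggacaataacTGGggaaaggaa

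In the Siglecs the matching search was for the tyrosine motif of inhibitory receptors, a tyrosine preceded by isoleucine, leucine or valine and any residue, and followed by any pair of residues and again isoleucine, leucine or valine. Only matches near the end of each coded protein were kept. The motif was found 2 times in the tail of Siglecg and 1 time each in Siglecf and Siglece. In the leading coding transcript of Cd33 it was found 0 times near that end. The motifs of Siglecg and Siglecf, the Siglecs of highest level in KO libraries, are shown in capitals with 12 bases on either side.
Siglecg first motif (chr7:43412676-43412717, plus strand, exon 11): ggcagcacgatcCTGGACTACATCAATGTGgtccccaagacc
Siglecg second motif (chr7:43417967-43418008, plus strand, exon 12): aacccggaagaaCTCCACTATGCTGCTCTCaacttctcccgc
Siglecf (chr7:43358658-43358699, plus strand, exon 10): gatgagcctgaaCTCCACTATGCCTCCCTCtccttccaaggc

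Libraries held 24724079 to 34941390 estimated reads in KO and 23508985 to 30325691 in WT. B4galt1 RNA itself did not separate the groups, at 15.9 ± 2.28 CPM (counts scaled to library size) in KO libraries (SD, n = 4) and 18.3 ± 6.62 CPM in WT libraries (SD, n = 3), so the genotypes rest on the labels. In the labelled cell type all 12 LT-HSC markers were detected, with a summed level of 1380 to 1610 CPM in KO libraries and 1680 to 1970 CPM in WT libraries. Mllt3, a stem cell regulator, was the 1 marker of these that passed the test, and it was lower in KO libraries (log2 fold change -1.15, edgeR adjusted p = 0.0128). Cd48, whose protein the sort selected against, had 105.3, 126.0, 141.8 and 129.7 CPM in KO replicates 1 to 4, against 25.2, 14.0 and 32.3 CPM in WT replicates 1 to 3 (log2 fold change 2.40, edgeR adjusted p = 8.04e-04). Across the transcriptome 332 of 14695 genes tested passed at an adjusted p below 0.05, 88 higher and 244 lower in KO libraries, which is 2.26% of them (0.599% higher and 1.66% lower). In bulk RNA a difference in the number of cells of a type and a difference in RNA per cell cannot be told apart.

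Summed over their genes, galectins stood far above Siglecs in LT-HSCs of both groups, though the galectin Lgals12 had the lowest mean of all members. Levels are compared between genes by the deposited TPM (abundance scaled to transcript length and library size), summed per gene. Lgals9, a galectin known as a ligand of the immune checkpoint receptor TIM-3, stood first in every library, at 419.3, 561.4, 548.6 and 552.9 TPM in KO replicates 1 to 4, against 424.8, 218.1 and 435.2 TPM in WT replicates 1 to 3. It made up 79.0% to 81.9% of the summed galectin TPM in KO libraries and 74.0% to 85.3% in WT libraries. WT replicate 2 alone lay low, and the ranges of the groups overlapped.

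Lgals1, the prototype galectin with a single domain that works as a dimer, came second at 75.4 ± 7.90 TPM in KO libraries (SD, n = 4) and 43.7 ± 5.23 TPM in WT libraries (SD, n = 3). Lgals8, a tandem-repeat galectin that marks damaged endosomes for autophagy, came next at 38.8 ± 10.4 TPM in KO libraries and 28.0 ± 10.6 TPM in WT libraries. The ranges of these leading 3 galectins did not overlap within either group. Lgals3, the chimeric galectin with a collagen-like tail, averaged 9.69 ± 4.61 TPM in KO libraries and 2.22 ± 0.572 TPM in WT libraries. Lgals4, best known from gut epithelium, averaged 6.91 ± 3.82 TPM in KO libraries and 4.52 ± 1.12 TPM in WT libraries. In KO Lgals3 was above Lgals4 in 3 of 4 libraries and their ranges overlapped, whereas in WT Lgals4 was above Lgals3 in all 3 libraries, without overlap. The difference between the groups in this order was not tested.

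No Siglec exceeded 2.08 TPM in any library. Summed TPM of the 4 Siglec genes was 2.30, 3.07, 3.27 and 3.07 in KO replicates 1 to 4, against 0.617, 2.93 and 1.32 in WT replicates 1 to 3. Siglecf averaged 1.25 ± 0.585 TPM in KO libraries and 0.360 ± 0.258 TPM in WT libraries, and Siglecg 1.18 ± 0.463 TPM in KO libraries and 0.442 ± 0.403 TPM in WT libraries. The TPM of Siglecf did not overlap between the groups, at 0.700 to 2.08 in KO libraries and 0.132 to 0.639 in WT libraries, but its CPM did. The value of 2.08, in KO replicate 4, lay wholly on a transcript annotated as retaining an intron. The share of all genes without overlap in TPM was not counted. Cd33 averaged 0.406 ± 0.266 TPM in KO libraries and 0.642 ± 0.965 TPM in WT libraries. Below Lgals4 in KO and below Lgals3 in WT, neighbours in the order of levels overlapped in their ranges, so the order among the Siglecs and Lgals12 is not fixed beyond the spread.

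**Figure D1:**
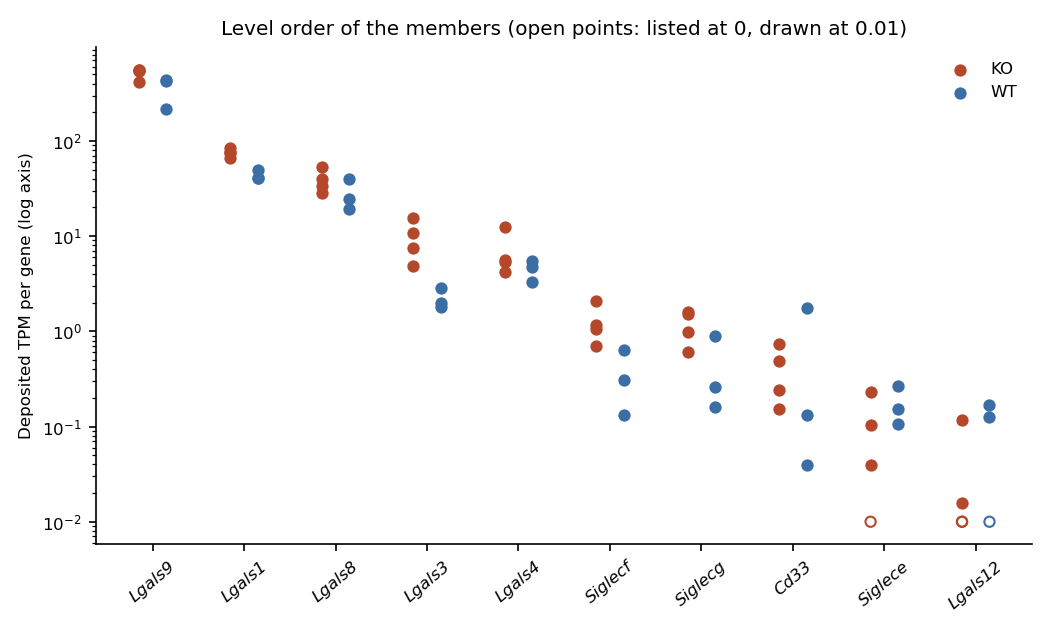
Deposited TPM per gene (log axis) for each of the 10 genes, with 1 point per library, KO on the left and WT on the right of each gene. Lgals9 lies highest in every library, between 218.1 and 561.4 TPM, and the Siglecs lie at or below 2.08 TPM.

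Between the groups, 0 of the 8 member genes with enough reads for a test passed at an adjusted p below 0.05 with edgeR, where 2.26% of all genes tested did (0.599% higher, 1.66% lower). At an unadjusted p below 0.05 there were 4, all higher in KO libraries (Lgals3, Lgals1, Siglecg and Siglecf), where 7.42% of all genes tested were higher at that level. DESeq2 called 1 member higher, Lgals3, and 2.4% of all genes higher. With limma voom and library quality weights 2 were called, Lgals1 and Lgals3, and 1.83% of all genes higher. Of the 8 members tested, 7 had a log2 fold change above 0, where 52.7% of all genes tested did, and 2 had groups that did not overlap, where 15.7% of all genes tested did. The median log2 fold change was 0.51 over these 8, 0.43 over the 5 galectins and 1.38 over the 3 Siglecs, against 0.03 over all genes tested. These medians leave out the 2 members with few reads and are given as a description. The values below are for single genes at levels normalised between libraries (CPM), with log2 fold changes of KO over WT.

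Lgals3 showed the difference of smallest p among the members. Its level was 8.63, 6.36, 12.3 and 3.21 CPM in KO replicates 1 to 4, against 2.51, 1.83 and 1.51 CPM in WT replicates 1 to 3. All 4 KO libraries lay above all 3 WT libraries, which 8.23% of all genes tested showed, and KO replicate 4 lay close to the WT range. These levels rest on 119 to 337 estimated reads per KO library and 35 to 74 per WT library. The log2 fold change was 1.96 (SE 0.471, 95% interval 0.92 to 3.00), a 3.89-fold higher level, and it missed the threshold (edgeR adjusted p = 0.0645).

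The call on Lgals3 depended on the setting, and the gene passed in 7 of 18 alternatives. Its edgeR adjusted p was 0.0658 with RLE scaling and 0.074 with upper quartile scaling, neither of which passed. Nor did it pass with a stricter filter on low counts (0.0569), a length offset (0.0582) or protein-coding genes only (0.0622). Its adjusted p was 0.00142 with DESeq2, 0.0286 with limma voom and library quality weights, 0.0452 with no filter on low counts and 0.0314 with sex as a covariate. In the last 2 settings 0.4% and 1.48% of all genes were called higher. With the replicate number as a block it was 0.0347, where 0.409% of all genes were called higher. Without KO replicate 4 the log2 fold change was 2.22 (edgeR adjusted p = 0.0119, with 0.901% of all genes called higher), and without each of the other 6 libraries in turn it did not pass.

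Lgals1 had 42.0, 50.1, 51.7 and 39.1 CPM in KO replicates 1 to 4, against 26.8, 39.0 and 25.4 CPM in WT replicates 1 to 3. The groups did not overlap, but the lowest KO library and the highest WT library, KO replicate 4 and WT replicate 2, were almost level. The log2 fold change was 0.59 (SE 0.205, 95% interval 0.14 to 1.04, edgeR adjusted p = 0.208), and limma voom with library quality weights gave 0.82 (adjusted p = 0.0128).

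The remaining galectins differed by less. Lgals9 was at 699.2 ± 92.5 CPM in KO libraries (SD, n = 4) and 541.3 ± 138 CPM in WT libraries (SD, n = 3), with a log2 fold change of 0.37 (95% interval -0.08 to 0.82, edgeR adjusted p = 0.442). Without WT replicate 2, the library with least Lgals9, the log2 fold change was 0.15. Lgals8 was at 83.6 ± 14.2 CPM in KO libraries and 72.2 ± 20.7 CPM in WT libraries (log2 fold change 0.21, 95% interval -0.26 to 0.69, edgeR adjusted p = 0.678). With 1 library left out in turn, that log2 fold change of Lgals8 ran from 0.055 to 0.45. Its 3′ end overlaps Heatr1 on the opposite strand by 875 bases, and as the kit does not mark strand, some reads may belong to either gene.

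Lgals4 had 3.63, 5.91, 4.21 and 11.6 CPM in KO replicates 1 to 4, against 4.82, 5.62 and 3.66 CPM in WT replicates 1 to 3. Only KO replicate 4 stood out, and without it the log2 fold change turned from 0.43 (edgeR adjusted p = 0.67) to -0.029 (edgeR adjusted p = 0.986). For Lgals8, Lgals9 and Lgals4 the intervals include 0 and also differences of more than 1.5-fold, so equal levels were not shown.

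**Figure D2:**
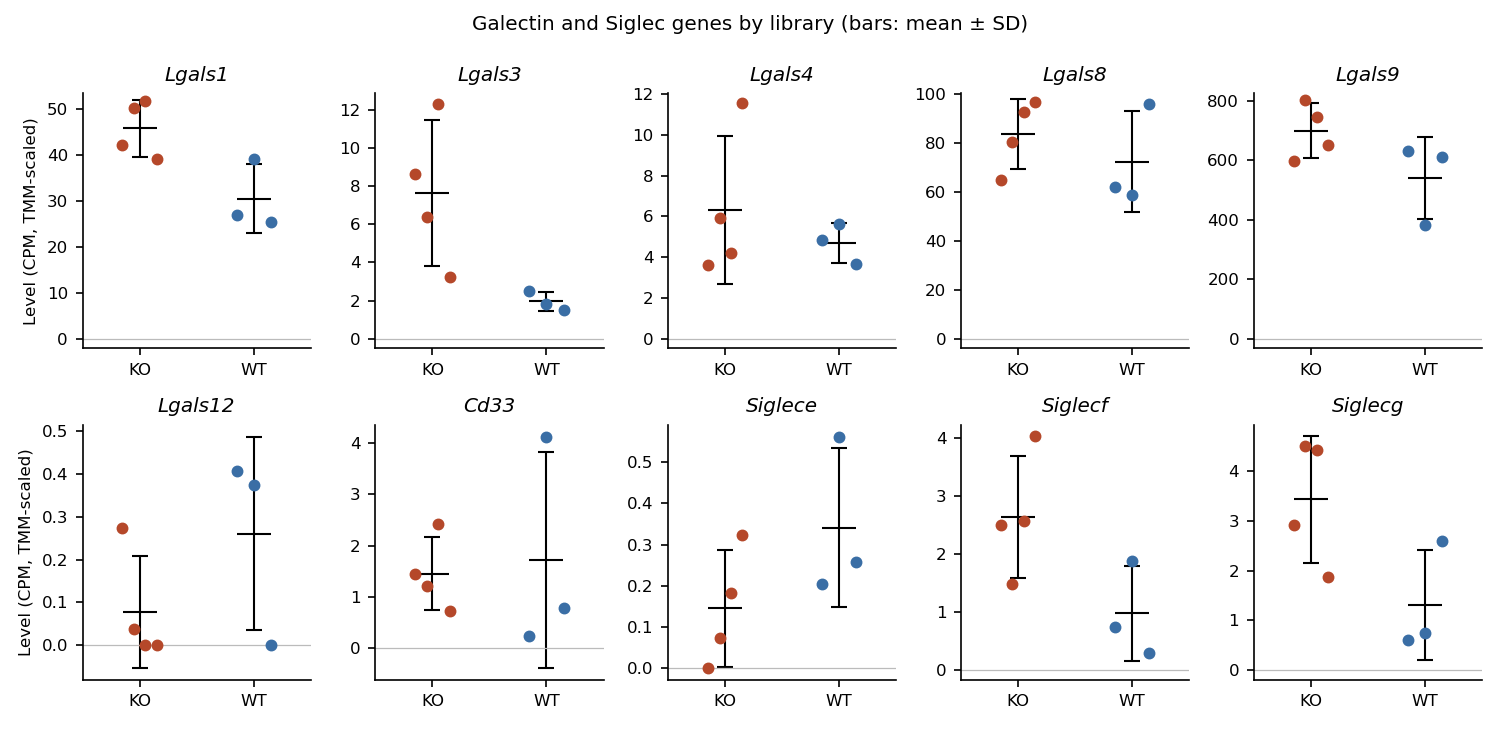
Level of each gene in CPM (TMM-scaled), with 1 point per library, KO left and WT right, and bars for the mean ± SD. Lgals1 and Lgals3 are the 2 genes whose KO libraries all lie above their WT libraries.

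Among the Siglecs, Siglecg, the inhibitory receptor of B cells, had 2.93, 4.51, 4.42 and 1.86 CPM in KO replicates 1 to 4, against 0.611, 0.750 and 2.59 CPM in WT replicates 1 to 3. KO replicate 4 and WT replicate 3 crossed, and these are the 2 libraries without Y-linked expression (summed level of 4 Y-linked genes 10.9 CPM in KO replicate 4 and 6.04 CPM in WT replicate 3, against at least 256 CPM in the others). The log2 fold change was 1.38 (SE 0.593, 95% interval 0.07 to 2.69, edgeR adjusted p = 0.318). Without WT replicate 3 it was 2.32, which did not pass. With sex as a covariate over all libraries it was 1.64 and did not pass (edgeR adjusted p = 0.202). Among the 5 libraries with Y-linked expression it was 2.55 (edgeR adjusted p = 0.0371), and 0.612% of all genes were called higher there. That split was chosen after seeing the data, and each remaining library without Y-linked expression is alone in its group, so the difference could not be tested within that class.

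Siglecf, a receptor of mouse eosinophils, had 2.50, 1.48, 2.56 and 4.03 CPM in KO replicates 1 to 4, against 0.747, 1.87 and 0.302 CPM in WT replicates 1 to 3. WT replicate 2 lay above KO replicate 2, so the groups overlapped in CPM. The log2 fold change was 1.44 (SE 0.637, 95% interval 0.04 to 2.85, edgeR adjusted p = 0.33). Leaving out WT replicate 2 gave 2.28 and leaving out WT replicate 3 gave 1.01, neither of which passed. With sex as a covariate the log2 fold change was 1.47 (edgeR adjusted p = 0.249). Among libraries with Y-linked expression alone it was 0.76 (edgeR adjusted p = 0.585).

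Cd33, a myeloid Siglec, had 1.44, 1.22, 2.41 and 0.729 CPM in KO replicates 1 to 4, against 0.238, 4.12 and 0.776 CPM in WT replicates 1 to 3. WT replicate 2 was above all other libraries, and the sign rests on it: the log2 fold change was -0.23 (95% interval -2.04 to 1.58, edgeR adjusted p = 0.916) and 1.5 without that library (edgeR adjusted p = 0.503).

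Siglece and Lgals12 had too few reads to be tested. Siglece, a Siglec of mouse neutrophils and monocytes, had 0.0, 1.8, 4.6 and 12.1 estimated reads in KO replicates 1 to 4, against 5.6, 12 and 6.0 in WT replicates 1 to 3. Lgals12, a galectin of adipocytes, had 7.0, 1.0, 0.0 and 0.0 estimated reads in KO replicates 1 to 4, against 12, 8.0 and 0.0 in WT replicates 1 to 3. A count of 0 allows a level of up to 0.117 CPM for Siglece in KO replicate 1. For Lgals12 it allows up to 0.11 CPM in KO replicate 3, 0.081 CPM in KO replicate 4 and 0.129 CPM in WT replicate 3 (3 reads of the library, counting error only).

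**Figure D3:**
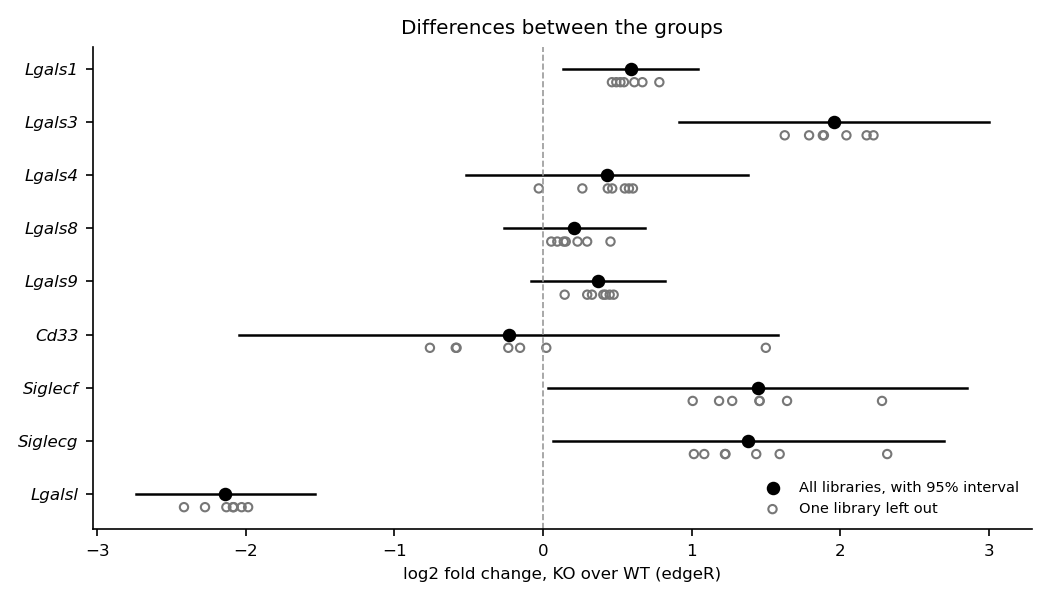
Log2 fold change of KO over WT from edgeR for the 8 member genes tested and for Lgalsl, with 95% intervals, and below each the 7 values with 1 library left out (open circles). The interval of Lgals3 lies above 0 (0.92 to 3.00), that of Lgalsl lies below 0 (-2.74 to -1.54), and Cd33 spreads to both sides.

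The gene totals hold different kinds of transcript. For Siglecf, all 149 estimated reads of KO replicate 4, its highest library, were assigned to a transcript annotated as retaining an intron. Reads on its protein-coding transcripts were 64, 40, 70 and 0 in KO replicates 1 to 4, against 22, 40 and 7 in WT replicates 1 to 3. For Siglecg the coding transcripts held 33.2, 65.6, 46.1 and 0 estimated reads in KO replicates 1 to 4, against 0, 16 and 28.4 in WT replicates 1 to 3. On coding transcripts alone, both Siglecs thus had 0 reads in KO replicate 4, and neither separated the groups.

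Lgals4 also carried reads on retained-intron transcripts, with a coding share of 46.6% to 75.8% in KO libraries and 38.8% to 90.0% in WT libraries. In contrast the protein-coding transcripts held 97.0% to 100% of Lgals1 reads in KO libraries and 95.8% to 100% in WT libraries, and all Lgals3 reads in every library. In Lgals9 one transcript of 1520 bases, Lgals9-202, held 96.3% to 97.2% of the reads in KO libraries and 95.3% to 97.6% in WT libraries, so the isoform make-up of this galectin was nearly fixed. For Lgals8 the leading transcript Lgals8-201 held 39.1% to 51.9% in KO libraries and 53.4%, 11.4% and 48.4% in WT replicates 1 to 3, with WT replicate 2 again apart. Salmon divides reads between transcripts that share sequence, so these shares are estimates, and no error of the division is in the files.

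**Figure D4:**
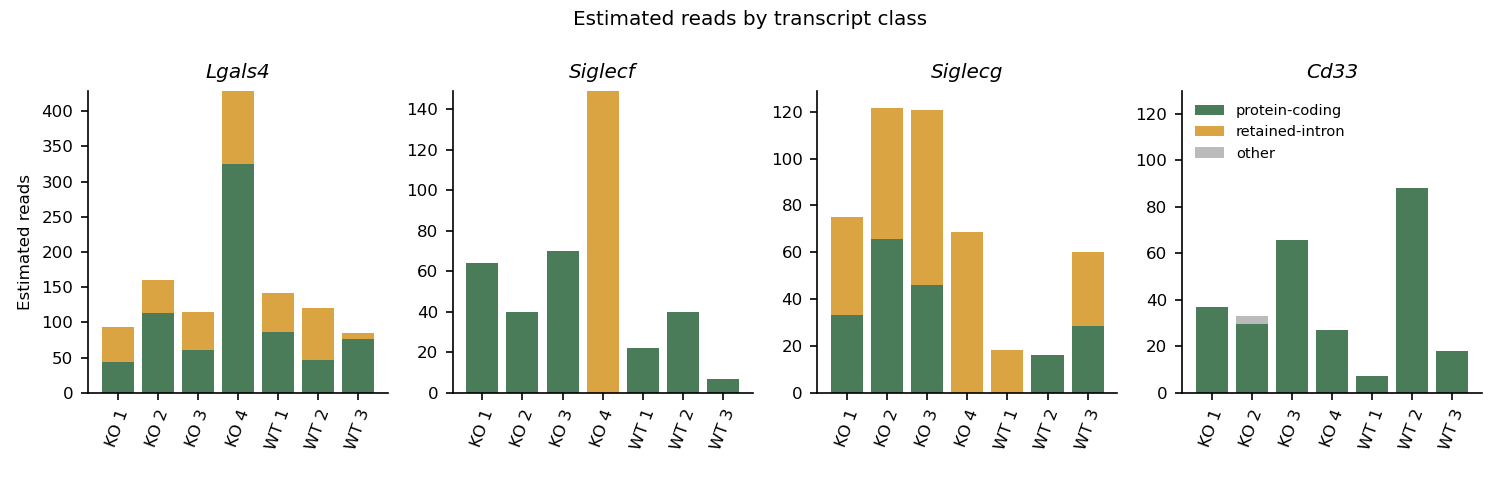
Estimated reads per library on protein-coding, retained-intron and other transcripts of Lgals4, Siglecf, Siglecg and Cd33, KO libraries left and WT libraries right. All Siglecf reads of KO replicate 4 (149) and all Siglecg reads of KO replicate 4 (68.6) lie on retained-intron transcripts.

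Among the relatives of these genes, Lgalsl passed the test. It encodes the galectin-related protein, which lacks residues of the sugar-binding groove, and the search above found 0 stretches in it, as in Lgals12. Lgalsl had 8.16, 12.1, 9.25 and 8.56 CPM in KO replicates 1 to 4, against 25.3, 49.5 and 51.1 CPM in WT replicates 1 to 3. Every KO library lay below every WT library, with a log2 fold change of -2.14 and SE of 0.272 (edgeR adjusted p = 0.00189). It passed in all 18 alternatives, from -2.42 to -1.84. Of the 6 tested genes in this list of other galectin and Siglec relatives, 1 fell and 0 rose (median log2 fold change -0.05, against 0.03 for all genes tested). Over all genes tested, 1.66% fell and 0.599% rose. Cd22, the B cell Siglec, had the next smallest p (log2 fold change 1.17, edgeR adjusted p = 0.448).

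Beside the fall of Lgalsl stands a fall of megakaryocyte and platelet markers, whose summed level over 12 genes was 1290 to 2140 CPM in KO libraries and 5880 to 12800 CPM in WT libraries. Of these 12 markers, 10 fell and 0 rose, where 1.66% of all genes tested fell and 0.599% rose. Their part in the Lgalsl result was not tested.

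Of 15 tested partners through which Siglecs signal, 1 rose and 1 fell, where 0.599% of all genes tested rose and 1.66% fell (median log2 fold change of the partners -0.11). Tyrobp, also called DAP12, is the adaptor that carries an activating motif for receptors without one of their own, among them Siglec-H. It rose to 42.5, 32.5, 49.8 and 21.1 CPM in KO replicates 1 to 4, against 13.2, 9.42 and 6.64 CPM in WT replicates 1 to 3 (log2 fold change 1.90, SE 0.336, edgeR adjusted p = 0.0148). Src, a founding member of the kinase family that phosphorylates such motifs, fell to 2.11, 2.11, 1.72 and 0.811 CPM in KO replicates 1 to 4, against 5.74, 13.5 and 5.73 CPM in WT replicates 1 to 3 (log2 fold change -2.30, SE 0.456, edgeR adjusted p = 0.0265). The groups did not overlap for either gene. Ptpn6, the phosphatase SHP-1 that inhibitory Siglecs recruit, was at 190.7 ± 70.0 CPM in KO libraries (SD, n = 4) and 142.7 ± 31.3 CPM in WT libraries (SD, n = 3) and did not pass (edgeR adjusted p = 0.505). Ptpn11, the related phosphatase SHP-2, averaged 66.3 CPM in KO libraries and 103.7 CPM in WT libraries, without overlap (log2 fold change -0.64, edgeR adjusted p = 0.202). Socs3, a suppressor of cytokine signalling, averaged 4.71 CPM in KO libraries and 1.43 CPM in WT libraries, also without overlap (log2 fold change 1.72, edgeR adjusted p = 0.184).

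Of 22 tested counter-receptors of galectins 0 were called by edgeR, with an unadjusted p below 0.05 for 4 higher and 2 lower genes and a median log2 fold change of 0.00. Over all genes tested, 7.42% were higher and 7.21% lower at that level. Cd93, a stem cell surface glycoprotein, was at 75.3 ± 6.92 CPM in KO libraries and 111.2 ± 5.12 CPM in WT libraries (log2 fold change -0.56, edgeR adjusted p = 0.0804), without overlap. Selplg, which encodes the selectin ligand PSGL-1, was at 189.3 ± 40.4 CPM in KO libraries and 106.9 ± 35.4 CPM in WT libraries (log2 fold change 0.82, edgeR adjusted p = 0.16).

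Of 14 tested genes of sialic acid supply and removal 0 were called by edgeR, and an unadjusted p below 0.05 was seen for 0 higher genes and 1 lower gene (median log2 fold change 0.16). Over all genes tested, 7.42% were higher and 7.21% lower at that level. Casd1, which adds acetyl groups to sialic acid, had a log2 fold change of -0.40 (edgeR adjusted p = 0.32), and Slc17a5, the lysosomal sialic acid exporter, one of 0.55 (edgeR adjusted p = 0.376). Of 14 tested genes of galactose supply and poly-N-acetyllactosamine 0 were called by edgeR, and an unadjusted p below 0.05 was seen for 1 higher gene and 0 lower genes (median log2 fold change -0.03). The shares of all genes tested beside this count are the same. B3gnt2, the main enzyme extending poly-N-acetyllactosamine, had a log2 fold change of 0.53 (edgeR adjusted p = 0.309), and the lysosomal beta-galactosidase gene Glb1 one of 0.50 (edgeR adjusted p = 0.426).

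Among 13 tested genes of other glycan-reading lectins 0 were called by edgeR, and an unadjusted p below 0.05 was seen for 3 higher genes and 0 lower genes (median log2 fold change 0.17). Over all genes tested, 7.42% were higher and 7.21% lower at that level. Lman2l, a lectin of the early secretory pathway, had a log2 fold change of 0.70 (edgeR adjusted p = 0.234).

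The genes whose pattern was most like that of Lgals3 over the 7 libraries were taken as those of highest Pearson r on log2 CPM among protein-coding genes with a mean log2 CPM of at least 1. They were Mmachc (r = 0.987), Tyrobp (r = 0.981), Knl1 (r = 0.976), Nsd1 (r = 0.975) and Olfr1033 (r = 0.97). The points share the group difference and the libraries, so these values only describe likeness. Of these 5 genes, Tyrobp alone passed the edgeR test.

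Markers of cells known for these lectins differed in how they stood beside the members. Macrophages are a classic source of Lgals3, and the monocyte and macrophage markers Adgre1, Mertk, Fcgr1, C1qa and C1qb stayed below 1 CPM in every library. The sum over the list of 14 such markers, most of which was Lyz2, was 474 to 595 CPM in KO libraries and 659 to 812 CPM in WT libraries. Mast cell and basophil markers summed to 1420, 686, 1440 and 534 CPM in KO replicates 1 to 4, against 490, 187 and 159 CPM in WT replicates 1 to 3. Of 7 tested members of that list 2 rose, Fcer1a (log2 fold change 2.81, edgeR adjusted p = 0.0328) and Hdc (3.11, edgeR adjusted p = 0.0404), and Tpsb2 was at 0 in every library. Over all genes tested, 0.599% rose. At an unadjusted p below 0.05 (edgeR) 5 of the 7 were higher and 0 lower, where 7.42% of all genes tested were higher. All KO libraries lay above all WT libraries for 3 of the 7, which 8.23% of all genes tested showed. Gata2, which stem cells also express and which did not pass (log2 fold change 0.03, edgeR adjusted p = 0.945), made up most of the sum in WT replicates 2 and 3, with 174.2 and 143.9 CPM. Prss34, which had 615.3, 265.7, 577.4 and 216.8 CPM in KO replicates 1 to 4, against 165.3, 0.0468 and 0.0431 CPM in WT replicates 1 to 3, did not pass (edgeR adjusted p = 0.443). Neutrophil markers summed to 151 to 289 CPM in KO libraries and 112 to 130 CPM in WT libraries. Of 9 tested genes 0 were called higher and 1 lower, where 0.599% and 1.66% of all genes tested were. That list split at an unadjusted p below 0.05 (edgeR), with 4 higher (Mpo, Prtn3, Ctsg and Csf3r) and 4 lower (S100a8, S100a9, Ngp and Camp). Over all genes tested, 7.42% were higher and 7.21% lower at that level. The part of these cells, and of the higher Cd48, in the Lgals3 and Lgals1 values was not tested.

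For Siglecf, the eosinophil markers Prg3, Ear6 and Ear1 had no reads in any library and Prg2, Epx and Ear2 stayed below 1 CPM, and the list sum was 0.297 to 4.46 CPM in KO libraries and 0.679 to 2.16 CPM in WT libraries. Ear2 had 0.703, 0.296, 0.439 and 0 CPM in KO replicates 1 to 4, against 0 CPM in all WT libraries. Il5ra, the interleukin-5 receptor chain, had 0.976, 0.444, 1.35 and 0.270 CPM in KO replicates 1 to 4, against 0.238, 0.328 and 0.216 CPM in WT replicates 1 to 3 (log2 fold change 1.53, edgeR adjusted p = 0.366). For Siglecg, the B cell genes Pax5 and Igll1 had no reads, Ms4a1 and Ebf1 stayed below 1 CPM, and the B cell list sum, nearly all of it Cd79b, was 55.3 to 70.6 CPM in KO libraries and 65.3 to 80.0 CPM in WT libraries. Ighm, the immunoglobulin mu chain, had 3.32, 2.18, 3.55 and 6.21 CPM in KO replicates 1 to 4, against 0.645, 0.187 and 2.29 CPM in WT replicates 1 to 3 (log2 fold change 1.87, edgeR adjusted p = 0.266). Vpreb1, a surrogate light chain gene, had 1.96 to 3.24 CPM in KO libraries and 1.46 to 1.73 CPM in WT libraries, without overlap (edgeR adjusted p = 0.479). The part of such cells in the Siglecf and Siglecg values was not tested.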

How the data were processed

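Salmon 0.11.2, cutadapt and the mm10 build are named per the submitters' processing notes, with no transcript set stated in the sources at hand. The deposited files give estimated counts and TPM per transcript, and effective lengths, which served for a length offset. Transcripts were joined without version to GENCODE M21 (GRCm38); 111787 of 112092 matched. The unmatched held 0.0836% to 0.123% of reads. Estimated counts were summed per gene and rounded.

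All genes were fitted with edgeR 4.0.16 (quasi-likelihood test, TMM scaling, filterByExpr, Benjamini-Hochberg adjustment over all 14695 genes tested, in R 4.3.3). SEs were derived from each gene's fold change and its F statistic. The scripts were tested on simulated data. Tried as alternatives were scaling by upper quartile or RLE, no filter, a stricter filter (at least 1 CPM in 3 libraries and 50 reads), DESeq2 1.42.0, limma 3.58.1 voom with library quality weights, a length offset, protein-coding genes only, a replicate block, sex (a Y-linked sum above 100 CPM) and each library left out. Libraries with Y-linked expression alone were added after seeing the data.

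Members, lists and the naming rule were chosen with earlier results of these data known. All members are named, then from each pathway list the genes past the threshold or else the 2 of smallest p, and the 5 genes most like the member of smallest p, except that some genes are not reported here. Mllt3, Cd48, Ptpn6, Ptpn11, Socs3 and the named markers of other cell types were chosen after their values were seen. Lgals6 and Clc were not matched in the files. Words of 31 bases shared with other genes made up 7.01% of those in Siglecg, 5.53% in Lgals8 and 8.17% in Lgalsl, at most 1.19% in the other members, and 0% in Lgals1, Lgals3, Lgals4 and Lgals9.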

Additional observations from a re-analysis of the deposited data

Results flagged for a closer look

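Of 34 genes examined in the 4 KO libraries, 2 had 1 library far from the other 3, where chance gives about 1 in 20 for independent values. Lgals12 was at 0.273 CPM in KO replicate 1 against at most 0.037 CPM in the other KO libraries, which rests on 7.0 estimated reads. B4galt1 reached 19.3 CPM in KO replicate 1, against at most 14.9 CPM in the other KO libraries. Groups of 3 were not examined.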

How the results depend on the processing

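Members called higher were 0 in the edgeR comparison as reported, 1 (Lgals3) with no filter on low counts, with DESeq2, with sex as a covariate and with the replicate block, and 2 with limma voom and library quality weights (Lgals1 and Lgals3) and among libraries with Y-linked expression (Lgals3 and Siglecg). The count stayed at 0 with RLE or upper quartile scaling, the stricter filter, the length offset and protein-coding genes only. With 1 library left out the count ran from 0 to 1, and 0 members were called lower in every alternative run. Over all 18 alternatives the log2 fold change of Lgals3 ran from 1.63 to 2.22 (adjusted p 0.00142 to 0.2) and that of Lgals1 from 0.46 to 0.82 (adjusted p 0.0128 to 0.439). Signs turned for Lgals4 (-0.038 with the replicate block, -0.18 among libraries with Y-linked expression, -0.029 to 0.61 with 1 library left out), for Cd33 (1.65 with limma voom, 0.84 with the block, 0.022 without KO replicate 4, and -0.76 to 1.5 with 1 library left out) and for B4galt1 (-0.47 to 0.037 with 1 library left out). The cause was not tested.

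Over all genes, 88 higher and 244 lower became 352 and 514 with DESeq2, 269 and 439 with limma voom and 218 and 396 with sex as a covariate, and the length offset gave 214 higher. With 1 library left out, 30 to 130 were higher and 157 to 279 lower. Same-numbered libraries did not deviate together (r = -0.05, -0.12 and -0.04 for replicates 1 to 3). Deviations from a group mean are not independent and the libraries are few, so pairing by number was neither shown nor excluded. The block used replicates 1 to 3 of each group. At this depth Siglece and Lgals12 are at the limit of detection.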
